A study of Mus musculus with 6 samples.

Results

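The genes described here were 40 mouse genes of the interferon response and of antigen presentation on MHC class I, a list set by name and found by gene symbol among the 16640 known genes with counts in MIN6 cells. Counts were held for 39 of the 40, and *Ifitm3* was not analysed here. By role the list had 4 interferon receptor chains, 5 transcription factors, 4 genes of RNA sensing, 11 interferon-stimulated effectors, 4 membrane restriction factors, 2 chemokines and 10 genes of class I presentation.

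Interferons bind receptors at the cell surface and signal through Janus kinases to STAT and IRF transcription factors, which switch on genes that sense, mark or block viruses. The same signals raise the class I pathway, in which the proteasome cuts proteins into peptides, the TAP transporter carries the peptides into the endoplasmic reticulum, and class I molecules show them to T cells. Pancreatic β-cells are known to respond to interferons and to raise class I molecules when they do.

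RNA was sequenced from MIN6 cells, a mouse pancreatic β-cell line, in 2 groups with 3 libraries each. Both groups were infected with lentiviruses that carry dCas9, a Cas9 protein that binds DNA without cutting it, and a single guide RNA. The control group had a non-targeting guide RNA, and the *Thada*-activated group had a guide RNA to the *Thada* promoter with the activators of the synergistic activation mediator (SAM) system, as a stable line selected with puromycin and then G418. No cells free of lentivirus were analysed here, so every value below comes from infected cells. The labels give 3 replicates per group but do not say that they were separate cultures. The authors state in general that their cell experiments were repeated independently, without naming these libraries, so p-values measure the spread between these samples, part of which may be technical.

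Each library held between 17166511 and 17727004 counts. Levels are given in counts per 1000000 counts (CPM), scaled between libraries by the trimmed mean of M-values (TMM), where 1 count was worth from 0.0564 to 0.0583 CPM before this scaling. Between genes, levels are compared only in fragments per kilobase of gene and 1000000 fragments (FPKM), which divides by the length of the gene.

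The target gene was checked first. In order of replicate number, the control libraries held *Thada* at 28.1, 28.9 and 17.2 CPM, and the activated libraries at 57.3, 56.2 and 49.1 CPM. All 3 activated libraries were above all 3 control libraries. Over the 6 libraries the log2 fold change was 1.13 (SE 0.22), with an adjusted p of 1.00 by edgeR's quasi-likelihood test with Benjamini-Hochberg adjustment. DESeq2's Wald test on the same 6 libraries gave 1.13 with an adjusted p of 0.0104, so the call without the block depended on the tool. With the replicate number as a block it was 1.15 (SE 0.10), with an adjusted p of 0.00041 by the same edgeR test.

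Replicate 3 stood apart from replicates 1 and 2 in both conditions. The first principal component of log2 CPM took 77.0% of the variance and placed replicate 3 at 55.0 in control and 49.4 in *Thada*-activated cells, with the other 4 libraries between -27.0 and -25.4. The insulin gene *Ins2* took 10.2% of the counts in control replicate 3 and 8.36% in *Thada*-activated replicate 3, against 5.65% to 6.44% in the other libraries. The actin gene *Actb* was at 183 and 192 CPM in the replicate 3 libraries and between 505 and 578 CPM in the others. The part of these differences in the results on replicate 3 was not tested. In bulk RNA, fewer cells of a type and less RNA per cell cannot be told apart.

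Most of the listed genes were expressed in MIN6 cells. A mean of at least 1 CPM was reached by 37 of the 39, and the same 37 passed the filter on low counts and were tested. In mean FPKM over the 6 libraries, 5 genes were at 50 or more, 9 from 10 to 50, 20 from 1 to 10, and 5 under 1. The median of the tested members was 5.23 FPKM, against 11.6 FPKM over all 12516 tested genes. The 3 highest levels were those of *H2-D1* (282 FPKM), *H2-K1* (240 FPKM) and *B2m* (92.9 FPKM), which together encode the classical class I molecules and their invariant light chain, β2-microglobulin. They were followed by *Tapbp* (84.2 FPKM) and the receptor gene *Ifnar2* (61.8 FPKM). *Nlrc5*, the transactivator of class I genes, was at 5, 7 and 17 counts in control and 6, 5 and 15 counts in *Thada*-activated replicates 1, 2 and 3, a mean of 0.526 CPM, and was not tested. *Ifitm1* was at 0, 2 and 1 counts in control and 0, 0 and 2 counts in *Thada*-activated libraries, at or under the floor of 3 counts in all 6, so no fold change is given for it.

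The chief pattern among the members was the height of replicate 3. In each condition the log2 CPM of replicate 3 minus the mean of replicates 1 and 2 was taken, with a prior count of 0.5, as a description of single libraries without a test. In both conditions 20 of the 37 tested members were above replicates 1 and 2 by over 1.5-fold, where 12.7% of all tested genes were. By the same measure 1 member was below them, where 12.2% of all tested genes were, and 16 members did neither. The median difference of the members was 0.71 in control and 0.70 in *Thada*-activated cells, against 0.0013 and 0.0030 over all tested genes. In both conditions 32 of the 37 members were above 0, as were 43.2% of all tested genes. Between replicates 1 and 2, which set the scale of this spread, the median absolute difference of the members was 0.10 in log2 CPM in control and 0.11 in *Thada*-activated cells.

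The differences of the members in control cells went with those in *Thada*-activated cells, with a Pearson's r of 0.92 and a Spearman's rho of 0.90 across the 37 genes. These genes share the same 6 libraries and are not independent replicates. On the authors' TPM scale, an alternative chosen after seeing the data, 17 members were above and 1 was below by over 1.5-fold in both conditions, where 8.09% of all tested genes were above and 17.2% were below. That scale moved the median of all tested genes to -0.28 in control and -0.089 in *Thada*-activated cells, beside which the medians of the members were 0.43 and 0.60.

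**Figure D1:**
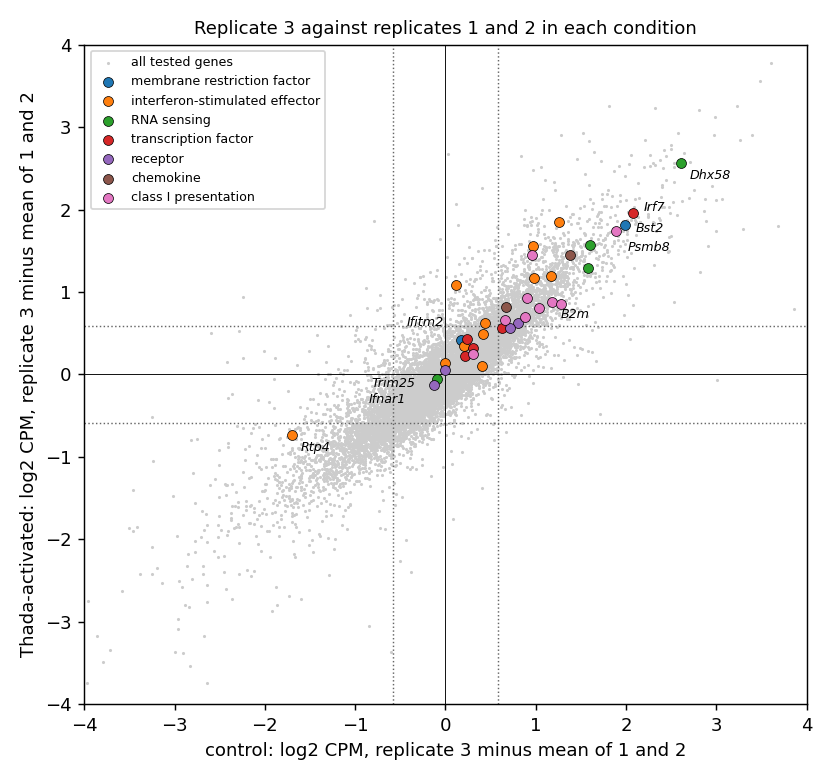
Each point is a gene, placed by its log2 CPM in replicate 3 minus the mean of replicates 1 and 2, in control cells on the x axis and in *Thada*-activated cells on the y axis; dotted lines mark a 1.5-fold difference, and 26 of the tested genes lie outside the axes. Of the 37 tested members, drawn in color by role, 20 lie in the upper right corner past both lines and *Rtp4* alone lies past both in the lower left.

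Of the 4 receptor chains, 1 was above 1.5-fold in replicate 3 in both conditions. *Ifnar2*, a chain of the type I interferon receptor, was at 55.6, 54.3 and 95.6 CPM in control and at 53.2, 51.3 and 80.5 CPM in replicates 1, 2 and 3 of *Thada*-activated cells. Replicate 3 was the highest library of each condition, by 0.80 and 0.62 in log2 CPM. Its partner *Ifnar1* was at 50.8, 50.7 and 46.5 CPM in control and at 48.7, 51.6 and 45.8 CPM in *Thada*-activated libraries. There replicate 3 was the lowest library of each condition, by -0.13 in both, and the groups overlapped. For the chains of the type II interferon receptor, *Ifngr2* differed by 0.71 in control and by 0.56, short of 1.5-fold, in *Thada*-activated cells, while *Ifngr1* differed by -0.0016 and 0.053.

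Among the 5 transcription factors, *Irf7*, which amplifies the type I interferon response, was the only one past 1.5-fold in both conditions. It was at 3.57, 4.02 and 16.0 CPM in control and at 3.60, 4.03 and 14.8 CPM in replicates 1, 2 and 3 of *Thada*-activated cells. Replicate 3 was 4.20-fold above the others in control and 3.88-fold in *Thada*-activated cells, and the groups overlapped. *Stat2* and *Irf9* encode the STAT and IRF partners of the complex that carries the type I signal to DNA. *Stat2* was at 33.6, 28.1 and 36.3 CPM in control and at 28.6, 31.3 and 40.4 CPM in *Thada*-activated libraries, with differences of 0.24 and 0.43 in replicate 3. *Irf9* was at 10.8, 11.2 and 12.7 CPM in control and at 11.5, 11.6 and 13.5 CPM in *Thada*-activated libraries, with differences of 0.21 and 0.22. Both were highest in replicate 3 of each condition by less than 1.5-fold. *Irf1*, a factor shared by type I and type II responses, differed by 0.63 and 0.57, just short in *Thada*-activated cells, and *Irf3*, which is activated downstream of RNA sensors, by 0.31 and 0.32.

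In RNA sensing, 3 of 4 members were past 1.5-fold in replicate 3. *Dhx58* encodes LGP2, a regulator of the RIG-I-like sensors, and had the largest difference of all tested members. It was at 2.75, 2.79 and 17.0 CPM in control and at 2.65, 2.59 and 15.6 CPM in replicates 1, 2 and 3 of *Thada*-activated cells. Replicates 1 and 2 of both conditions were close together, and replicate 3 was 6.09-fold above them in control and 5.92-fold above them in *Thada*-activated cells. An antisense gene shares 2.90% of the 50-base words of the *Dhx58* transcripts, and as the counting is not stated to use strand, its reads could not be told apart there. The sensors RIG-I (*Ddx58*) and MDA5 (*Ifih1*) differed by 1.60 and 1.57, and by 1.58 and 1.29, in control and *Thada*-activated cells. *Trim25*, which encodes a ubiquitin ligase that activates RIG-I, was at 56.7, 56.1 and 52.7 CPM in control and at 56.0, 57.0 and 54.2 CPM in *Thada*-activated libraries. Its replicate 3 was the lowest library of each condition, by -0.099 and -0.060.

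Of the 11 interferon-stimulated effectors, 4 were above and 1 was below by over 1.5-fold in replicate 3 of both conditions. Those above were *Parp14*, an ADP-ribosyltransferase, with differences of 1.26 and 1.85, *Isg15*, a ubiquitin-like modifier, with 0.96 and 1.56, *Rsad2*, which encodes the antiviral enzyme viperin, with 1.17 and 1.19, and *Ifit1*, whose protein binds foreign RNA, with 0.98 and 1.17. *Isg15* and *Ifit1* rested on 8 to 40 counts a library. *Rtp4*, an interferon-stimulated gene named for receptor transport, went the other way, at 9.84, 10.4 and 3.10 CPM in control and 8.11, 8.91 and 5.12 CPM in *Thada*-activated libraries. Its replicate 3 was the lowest library of each condition, at 0.308-fold of the others in control and 0.603-fold in *Thada*-activated cells. Its counts carry some uncertainty, as 11.6% of its 50-base words occur in another gene, *Gm45338*, and so do those of *Ifi35*, with 10.4% shared. *Ifit3* differed by 0.11 in control and 1.09 in *Thada*-activated cells, where 1 library set it apart with 69 counts against 24 to 37 in the other 5. Its counts are uncertain, because 51.2% of the 50-base words of its transcripts also occur in *Ifit3b*. *Ifit2* (0.41 and 0.49), *Ifi35* (0.44 and 0.62), *Usp18* (0.41 and 0.10), *Eif2ak2* (0.20 and 0.34) and *Parp9* (-0.0087 and 0.14) passed 1.5-fold in at most 1 condition. *Usp18* removes ISG15 from proteins, and *Eif2ak2* encodes the kinase PKR, which stops translation when it meets double-stranded RNA.

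The membrane restriction factors gave 2 tested genes. *Bst2*, whose protein tetherin holds budding virus at the cell surface, was at 1.58, 0.815 and 4.59 CPM in control and 1.07, 1.32 and 4.27 CPM in replicates 1, 2 and 3 of *Thada*-activated cells. Replicate 3 was the highest library of each condition, by 1.99 and 1.82 in log2 CPM, on 14 to 80 counts a library. *Ifitm2*, whose protein hinders the entry of viruses through membranes, was among the members with little difference in replicate 3, by 0.17 in control and 0.41 in *Thada*-activated cells, and is given with the comparison of the conditions.

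Both chemokines were past 1.5-fold in replicate 3. *Cxcl10*, an interferon-induced attractant of T cells, differed by 1.38 and 1.45 on 10 to 38 counts a library. *Cx3cl1*, a membrane-bound attractant, was at 2.11, 2.74 and 3.84 CPM in control and at 1.58, 1.44 and 2.67 CPM in *Thada*-activated libraries. Replicate 3 was the highest library of each condition, by 0.67 and 0.82, and *Thada*-activated replicate 3 lay within the range of the control libraries.

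Class I presentation had 8 of 9 tested members past 1.5-fold in replicate 3, all above. *B2m* was at 51.2, 48.9 and 113 CPM in control and at 49.4, 43.8 and 85.8 CPM in replicates 1, 2 and 3 of *Thada*-activated cells. The class I heavy chain gene *H2-D1* was at 353, 329 and 626 CPM in control and at 379, 376 and 613 CPM in *Thada*-activated libraries. *H2-K1*, which encodes another heavy chain, was at 295, 290 and 460 CPM in control and at 312, 307 and 488 CPM in *Thada*-activated libraries. In all 3 genes replicate 3 was the highest library of each condition, from 1.57-fold above the others for *H2-K1* in control to 2.26-fold for *B2m* in control. Counts of the heavy chains are uncertain where reads are shared with related genes, since 12.8% of the 50-base words of *H2-D1* and 9.63% of those of *H2-K1* occur in transcripts of other genes. The same caution holds for *Tapbp*, with 23.2% shared, *Psmb8*, with 11.9%, and *Tap2*, with 11.6%.

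For peptide loading, *Tapbp*, which encodes tapasin, was at 150, 160 and 318 CPM in control and at 185, 179 and 317 CPM in *Thada*-activated libraries. The peptide transporter gene *Tap1* was at 6.85, 7.16 and 17.0 CPM in control and at 7.26, 8.28 and 14.0 CPM in *Thada*-activated libraries. Its partner *Tap2* was at 9.84, 10.2 and 12.4 CPM in control and at 12.3, 11.9 and 14.4 CPM in *Thada*-activated libraries. Replicate 3 was the highest library of each condition in all 3 genes, but for *Tap2* by only 0.31 and 0.25, which left it as the tested class I member short of 1.5-fold.

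*Psmb8*, *Psmb9* and *Psmb10* encode the catalytic subunits that turn the proteasome into the immunoproteasome. *Psmb8* was at 1.93, 2.44 and 8.15 CPM in control and at 3.55, 3.22 and 11.4 CPM in *Thada*-activated libraries, so that replicate 3 was 3.71-fold and 3.35-fold above the others. *Psmb9* differed by 0.96 and 1.45, and *Psmb10* by 0.91 and 0.93. Summed in FPKM, these 3 subunits were at 7.08, 7.13 and 17.3 in control and at 7.94, 8.86 and 21.9 in *Thada*-activated replicates 1, 2 and 3. Their constitutive counterparts *Psmb5*, *Psmb6* and *Psmb7* summed to 293, 284 and 281 FPKM in control and to 312, 314 and 276 FPKM in *Thada*-activated libraries. The immunoproteasome subunits thus made up 2.36%, 2.45% and 5.81% of the 6 genes in control, and 2.48%, 2.75% and 7.34% in *Thada*-activated cells, highest in replicate 3 of each condition and a small part in every library.

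By position, 8 of the 40 members lie on chromosome 17. In the GRCm38 annotation of GENCODE M21, *Psmb9*, *Tap1*, *Psmb8* and *Tap2* are neighbors within 34335 bases (chr17:34181987-34216321), and of these, *Tap2* alone was short of 1.5-fold in replicate 3.

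**Figure D2:**
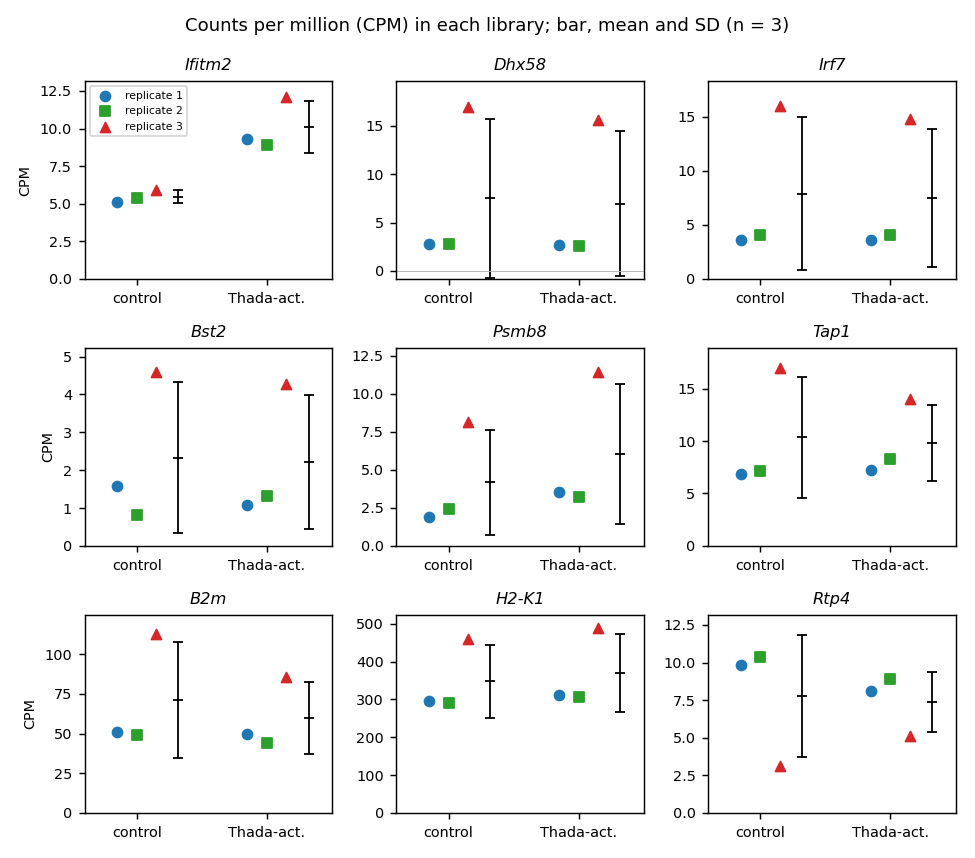
CPM of 9 members in each library, with replicates 1, 2 and 3 as circle, square and triangle, beside the mean and SD of each condition (n = 3). Replicate 3 is highest in both conditions for *Dhx58*, *Irf7*, *Bst2*, *Psmb8*, *Tap1*, *B2m*, *H2-K1* and *Ifitm2* and lowest for *Rtp4*. All 3 *Thada*-activated libraries of *Ifitm2*, from 8.91 to 12.1 CPM, are above the control libraries, from 5.10 to 5.91 CPM.

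Between the conditions, *Ifitm2* stood alone among the members. It had 87, 93 and 103 counts in control and 165, 155 and 213 counts in *Thada*-activated replicates 1, 2 and 3, or 5.10, 5.41 and 5.91 CPM against 9.29, 8.91 and 12.1 CPM. Control libraries had a mean of 5.47 ± 0.41 CPM and activated libraries one of 10.1 ± 1.75 CPM (SD, n = 3 each). All 3 *Thada*-activated libraries were above all 3 control libraries, and the pairs of the same number differed by 0.86, 0.72 and 1.03 in log2 CPM. With the condition as the only term its log2 fold change was 0.88 (SE 0.19), with an unadjusted p of 0.00286 by edgeR's quasi-likelihood test, which Benjamini-Hochberg adjustment took to an adjusted p of 1.00. With the replicate number as a block it rose by 0.88 (SE 0.13), with an adjusted p of 0.0138 by the same edgeR test. The exact two-sided permutation test over the 6 libraries gave p = 0.1, the smallest it can give for 3 against 3. The value of *Ifitm2* in the blocked fit was known before it was set against the other members, so these p-values are not independent support.

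The rise of *Ifitm2* was also present without replicate 3. In replicates 1 and 2 alone its log2 fold change was 0.79, with an adjusted p of 0.000183 by edgeR. That fit had 2 libraries in each condition and left out replicate 3, which stood apart from both. Its p measures only the smaller spread between replicates 1 and 2. *Ifitm2* lies on the minus strand at chr7:140954837-140955987. Its level is uncertain to the extent that reads are shared with other genes: 48.5% of the 50-base words of its transcripts occur in another GENCODE gene, 36.1% in *Gm45717*, while 3.30% occur in another gene of the *Ifitm* family. *Ifitm1*, with 11233 bases between it and *Ifitm2* in that annotation, was at or under the floor in every library.

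Calls needed both a fold change over 1.5 and an adjusted p under 0.05. With the condition as the only term edgeR called 0 of the 37 tested members and 0% of all 12516 tested genes. DESeq2 called 0 members and 5 genes in this design. At an unadjusted p under 0.05 edgeR had 1 member, *Ifitm2*, where 0.807% of all tested genes passed. With the replicate block, edgeR called 1 member higher, *Ifitm2*, and 0 members lower, where 0.104% of all tested genes were called higher. The block took the common biological coefficient of variation from 0.253 to 0.063. At an unadjusted p under 0.05 the blocked fit had 6 members, where 10.4% of all tested genes passed.

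Against *Ifitm2*, the other 36 tested members had log2 fold changes from -0.61 to 0.55 with the block. The highest was that of *Psmb8*, at 0.55 (SE 0.16), with an adjusted p of 0.265 by edgeR, the lowest of these 36. In every pair of the same number *Psmb8* was higher in *Thada*-activated cells, by 0.87, 0.39 and 0.48, but control replicate 3 was above *Thada*-activated replicates 1 and 2. The lowest was that of *Cx3cl1*, at -0.61 (SE 0.21), with an adjusted p of 0.341 by edgeR. Its pairs differed by -0.41, -0.91 and -0.52. The other members with an unadjusted p under 0.05 in the blocked fit were *B2m*, at -0.21 (SE 0.077), *Tap2*, at 0.25 (SE 0.10), and *Tapbp*, at 0.15 (SE 0.068), with adjusted p from 0.359 to 0.471 by edgeR. In replicates 1 and 2 alone *Tapbp* had an adjusted p of 0.00369 by edgeR with a log2 fold change of 0.23, short of 1.5-fold, but its pair 3 differed by -0.0029, and with the block and pair 1 left out the log2 fold change was 0.079 with an adjusted p of 0.88 by edgeR.

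Across the members, log2 fold changes lay on both sides of 0, and a shift of the list was not tested. Their median was 0.012 without and 0.0097 with the block, against -0.0040 and -0.00092 over all tested genes, with 19 members above 0 and 18 below 0 in each fit. The median absolute log2 fold change with the block was 0.11 for the members and 0.078 for all tested genes. Without control replicate 3 the median of the members was 0.33, and without *Thada*-activated replicate 3 it was -0.26. In these fits the height of replicate 3 stood in 1 condition only. With the block and pair 1, 2 or 3 left out the median was 0.069, 0.0083 and 0.0040, and in replicates 1 and 2 alone 0.0035. The median near 0 thus depended on which libraries were kept, most where 1 replicate 3 library was left out. The libraries of the conditions did not overlap for 2 members higher in *Thada*-activated cells, *Ifitm2* and *Parp9*, where 2.7% of all tested genes were so placed, and for 1 member lower, *Ifngr1*, where 2.7% were. *Parp9* was at 14.6, 16.6 and 15.5 CPM in control and 16.6, 17.1 and 18.5 CPM in *Thada*-activated libraries, and *Ifngr1* at 21.1, 21.7 and 21.3 CPM and at 17.7, 20.4 and 19.7 CPM. Neither passed the test with or without the block, with log2 fold changes of 0.16 and -0.15 in both fits. For *Parp9* the separation was narrow and depended on the scale. In FPKM its control replicate 2, at 5.36, was above *Thada*-activated replicates 1 and 2, at 5.19 and 5.32. In all 3 pairs 9 members were higher in *Thada*-activated cells, where 16.3% of all tested genes were, and 7 were lower, where 16.7% were.

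**Figure D3:**
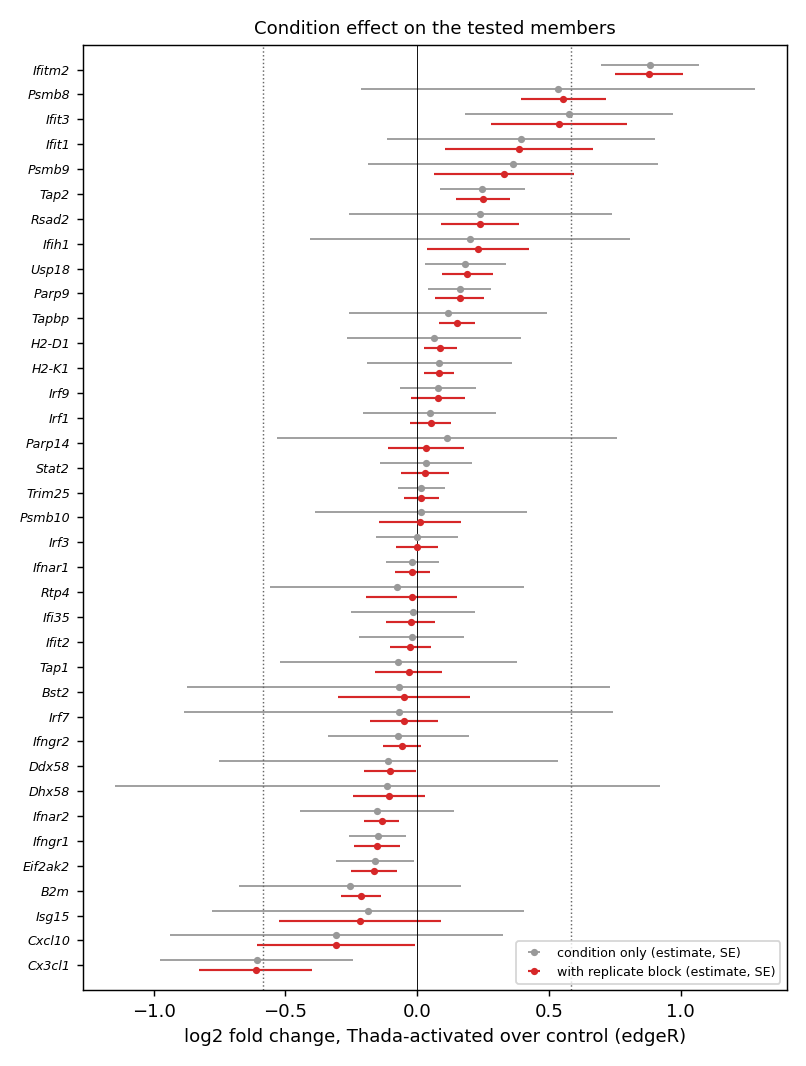
Log2 fold change between conditions (activated over control) of the 37 tested members by edgeR, with the condition only (grey) and with the replicate block (red); bars are standard errors and dotted lines mark a 1.5-fold change. *Ifitm2*, at 0.88 in both fits, and *Cx3cl1*, at -0.61 in both, lie beyond the lines with bars that do not reach 0, though *Ifitm2* alone was called, and the standard errors of *Dhx58* and *Psmb8* are far smaller with the block.

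Other genes of the pathway were followed in further lists. Of 13 receptors, kinases and regulators 10 were tested, of 14 sensors and adaptors 13, of 37 other interferon-stimulated genes 21, and of 15 other class I genes 15. Of all these, edgeR called 0 with or without the block. In replicate 3, the other interferon-stimulated genes differed from the members in their medians, which were -0.010 in control and 0.043 in *Thada*-activated cells, with 1 of the 21 above and 2 below by over 1.5-fold in both conditions, where 12.7% and 12.2% of all tested genes were. Their 3 most abundant genes by FPKM were *Lgals3bp*, with differences of -0.85 and -0.74, *Shisa5*, with 0.25 and 0.031, and *Ifi27*, with -0.58 and -0.50. The test of a difference between the lists was not made.

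Among receptors, kinases and regulators 3 were above 1.5-fold in replicate 3, including the kinase gene *Jak2* at 0.86 and 0.91 and the feedback inhibitor genes *Socs1* and *Socs3*. The more abundant *Jak1* and *Stat3* differed by -0.16 and -0.13 and by -0.022 and 0.30. Among the 13 tested sensors and adaptors 1 was above and 1 below by over 1.5-fold in replicate 3, beside the same shares of all tested genes, 12.7% and 12.2%. *Pcbp2*, the most abundant, differed by 1.02 and 0.94, *Tmem173*, which encodes the adaptor STING, by -1.56 and -1.48, *Traf3* by -0.49 and -0.61 and *Tbk1* by -0.053 and -0.14. Of the interferon genes 1 of 6, *Ifnl2*, had counts in the files, with 1 count in 1 library.

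Of the 15 other class I genes, 3 were above and 2 below by over 1.5-fold in replicate 3, where 12.7% and 12.2% of all tested genes were. Above were *H2-T23*, *H2-Q7* and *H2-T22*, nonclassical or related heavy chain genes, among them *H2-T23* with differences of 1.53 and 2.05. The 3 most abundant genes, which encode chaperones of the endoplasmic reticulum, had differences of -1.17 and -1.33 for *Calr*, -0.69 and -0.79 for *Pdia3* and -0.55 and -0.68 for *Canx*. The constitutive subunits *Psmb5*, *Psmb6* and *Psmb7* had 0 past 1.5-fold. Of 6 class II genes 4 had counts and 1 was tested, *H2-DMa*, with differences of -0.78 and -0.996, and the 4 summed to at most 4.25 CPM.

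Markers bore on which cells the RNA came from. The β-cell genes *Ins2*, *Iapp* and *Ins1* led their list of 8, which summed to between 106000 and 139000 CPM and was highest in replicate 3 of each condition. That sum is mostly *Ins2*, and the 7 tested β-cell markers had median differences of -0.27 in control and -0.37 in *Thada*-activated cells in replicate 3, with *Ins1* above and *Pdx1* below by over 1.5-fold in both conditions. In every library *Slc2a2*, the glucose transporter of β-cells, was at 0.512 CPM or less. Of 9 immune cell markers 7 had counts, 4 of them at or under 3 counts in every library, and their sum was 2.23, 0.698 and 1.09 CPM in control and 1.86, 1.67 and 1.71 CPM in replicates 1, 2 and 3 of *Thada*-activated cells, led by *Cd68*. In both conditions the immune sum of replicate 3 was below that of replicate 1 and above that of replicate 2. The 1 immune marker that was tested was below by over 1.5-fold in replicate 3 of both conditions, with differences of -0.96 in control and -0.92 in *Thada*-activated cells. The 4 fibroblast markers with counts summed to 3.10, 2.79 and 4.88 CPM in control and to 3.21, 3.80 and 6.37 CPM in *Thada*-activated libraries, led by *Col1a1*, and the 3 endothelial markers to 0.410, 0.407 and 1.26 CPM and to 0.338, 0.460 and 1.08 CPM, led by *Pecam1*, with *Cdh5* and *Kdr* at 0 or 1 count. Both sums were highest in replicate 3 of each condition, and their part in the height of the members there was not tested. Genes of other endocrine cells, led by *Sst*, summed to 198, 166 and 111 CPM in control and 184, 173 and 115 CPM in *Thada*-activated libraries, and *Krt19*, the only acinar or duct marker with counts, was at 0.527, 0.524 and 0.344 CPM and at 2.36, 1.5 and 1.02 CPM.

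Promoters of the members were searched for the letters to which interferon-activated factors bind. RefSeq promoters (GRCm38.p6) were held for 33 of the 40 members, and the 250 bases before each start were read on both strands. The core of the interferon-stimulated response element, written GAAANNGAAA, was found for 9 of the 33 genes (27.3%), against 3.46% of all 27025 genes with promoters and 2.93% of the tested genes. The members were listed for their known interferon response, so this share describes the list. Of the members past 1.5-fold higher in replicate 3, 6 of 18 held the letters, and of the other tested members 3 of 13. The gamma-activated site, written TTCNNNGAA, was found for 6 of the 33 genes (18.2%), against 8.13% of all genes with promoters. Of the tested genes 7.04% held it, and the share of the members again describes the list. It was held by 3 of the 18 members past 1.5-fold higher in replicate 3 and by 3 of the 13 other tested members. A match is a description of letters and not a site of binding.

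The 4 stretches below hold the first match of *Ifitm2*, the member called with the block, and of 3 members shown beside it. These are *Bst2*, *B2m* and *Isg15*, all past 1.5-fold higher in replicate 3 of both conditions, and *Isg15* has 3 matches. Capitals mark the bases of GAAANNGAAA matches, and each stretch is written 5′ to 3′ on the strand of its gene. The match of *Bst2* overlaps a match to the gamma-activated site. The match begins 46, 130, 139 and 78 bases before the RefSeq start of *Ifitm2*, *Bst2*, *B2m* and *Isg15*, which can differ from the start in GENCODE.
*Ifitm2*, chr7:140955988-140956017, minus strand: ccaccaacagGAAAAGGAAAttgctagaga
*Bst2*, chr8:71537583-71537612, minus strand: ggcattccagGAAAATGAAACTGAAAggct
*B2m*, chr2:122147538-122147567, plus strand: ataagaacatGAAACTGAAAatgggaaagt
*Isg15*, chr4:156200877-156200906, minus strand: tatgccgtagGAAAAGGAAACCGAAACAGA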

How the data were processed

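The authors deposited an estimated count (expected count) per gene for each of the 6 libraries, without normalization, together with FPKM and TPM values of the same genes. The deposited FPKM divides reads by gene length and library size, and the deposited TPM scales such values to the same sum in each library. The authors' table also holds a log2 fold change, a p-value and a q-value per gene from their own DESeq2 comparison, which were not used. The submitters' processing notes name Bowtie2, RSEM, DESeq2 and GRCm38, with no role stated, and whether counting used strand is not given in the sources used here.

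Estimated counts were rounded and tested in R 4.3.3 with edgeR 4.0.16 (filterByExpr, TMM, robust quasi-likelihood test, condition as the only term, Benjamini-Hochberg adjustment over all 12516 tested genes), after a test on simulated data. Alternatives were DESeq2 1.42.0 (size factors or Wald test), limma 3.58.1 on log2(FPKM + 1), other filters, each library left out in turn, replicates 1 and 2 alone, and the replicate number as a block, also with each pair left out. For replicate 3, the alternatives were other scales (among them the authors' TPM, chosen after seeing the data), a prior count of 2, a fold of 2, and replicate 1 or 2 left out.

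Replicate numbers come from the sample labels. With the mean of each condition taken away, same-number libraries correlated over genes at 0.596, 0.607 and 0.842, all over 0.1, so the numbers were taken as pairs. Crossing replicates 1 and 2 gave 0.652 and 0.691, so the numbers do not separate these. Taking away the mean sets replicates 1 and 2 together against replicate 3, which stood apart in both conditions. High values for replicates 1 and 2 therefore came with either pairing, and this check cannot decide which of them are pairs. Within each condition, the counts of every pair of libraries differed by more than sampling noise.

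Values in each library are given for *Ifitm1* and *Ifitm2*, members with an unadjusted p under 0.05 in either fit, the 3 largest rises and falls in replicate 3, the 3 highest in FPKM, and *Stat2*, *Irf9*, *B2m*, *H2-K1*, *H2-D1*, *Tap1* and *Psmb8*. *Ifnar2*, *Nlrc5*, *Parp9* and *Ifngr1* were added after their values were seen. In other lists the 3 most abundant genes are named, and *Socs1*, *Socs3*, *H2-T23*, *H2-Q7*, *H2-T22*, *Tmem173*, *Slc2a2* and the markers were named after their values were seen. The members and lists were chosen with earlier results of these data known, among them the value of *Ifitm2* in the blocked fit. Sharing of reads was judged by 50-base words of GENCODE M21 transcripts found in another gene on either strand. A line of the authors' table is broken inside a text cell, and its columns before the break were read. The strand in that table differs from GENCODE for some of the members, so coordinates and strands are those of GENCODE M21.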

Additional observations from a re-analysis of the deposited data

How the results depend on the processing

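Without the block edgeR called 0 genes with any 1 library left out, while other settings moved the count. DESeq2's Wald test called 5 genes, the replicate block 19 by edgeR and 20 by DESeq2, and replicates 1 and 2 alone 68 by edgeR. With the block, leaving out pair 1, 2 or 3 gave 43, 18 and 70 called genes. In each of these settings but DESeq2 without the block, 1 member was called, *Ifitm2*. The cause was not tested. The log2 fold change of *Ifitm2* was 0.88 with the block by edgeR and by DESeq2, 0.79 in replicates 1 and 2 alone, and 0.88, 0.95 and 0.79 with the block and pair 1, 2 or 3 left out. That of *Thada* was 1.13 by DESeq2, which called it without the block (adjusted p 0.0104), 1.15 with the block by edgeR, 1.16 with the block by DESeq2, 0.99 in replicates 1 and 2 alone, and 1.22, 1.26 and 0.99 with the block and pair 1, 2 or 3 left out. The median log2 fold change of the members was -0.0035 with no filter, 0.027 by limma and 0.0035 in replicates 1 and 2 alone. With the block and pair 1, 2 or 3 left out the median of the members was 0.069, 0.0083 and 0.0040. With 1 library left out in turn and no block this median went from -0.26 to 0.33. At a fold of 2 the members past the limit in replicate 3 of both conditions were 9, all above, where 4.78% of all tested genes were above and 4.15% below, and on the authors' TPM scale, chosen after seeing the data, they were 18 at a fold of 1.5, where 8.09% of all tested genes were above and 17.2% below.

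Directions of small log2 fold changes turned in some settings. With the block by DESeq2 they were 0.033 for *Rtp4* and -0.015 for *Parp14*. By limma they were 0.041 for *Rtp4* and 0.0025 for *Tap1*. In replicates 1 and 2 alone they were -0.040 for *Stat2*, 0.0077 for *Irf7*, -0.24 for *Parp14* and 0.15 for *Tap1*. With the block and pair 1 left out they were 0.068 for *Irf3*, 0.0028 for *Ifnar1*, 0.0073 for *Ifi35*, 0.14 for *Bst2* and 0.15 for *Rtp4*. With pair 2 left out they were 0.027 for *Ifit2*, -0.032 for *Stat2*, 0.0053 for *Ifi35*, 0.12 for *Rtp4* and -0.092 for *Psmb10*. With pair 3 left out they were -0.039 for *Stat2*, 0.0085 for *Irf7*, 0.0078 for *Bst2*, -0.24 for *Parp14* and 0.15 for *Tap1*.

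With 1 library left out in turn, the log2 fold change without the block went from -0.12 to 0.79 for *Ifit1*, -0.20 to 0.13 for *Ifit2*, -0.37 to 0.94 for *Ifih1*, -0.84 to 0.64 for *Ddx58*, -1.52 to 1.32 for *Dhx58*, -0.92 to 0.21 for *Isg15*, -0.12 to 0.13 for *Stat2* and -0.17 to 0.29 for *Irf1*. It went from -0.12 to 0.11 for *Irf3*, -1.04 to 0.98 for *Irf7*, -0.064 to 0.024 for *Ifnar1*, -0.39 to 0.17 for *Ifnar2*, -0.28 to 0.21 for *Ifngr2*, -0.26 to 0.15 for *Ifi35*, -0.96 to 0.89 for *Bst2* and -0.28 to 0.74 for *Rsad2*. The range was -0.46 to 0.19 for *Rtp4*, -0.79 to 0.66 for *Parp14*, -0.017 to 0.038 for *Trim25*, -0.98 to 0.30 for *Cxcl10*, -0.61 to 0.25 for *B2m*, -0.21 to 0.42 for *H2-D1*, -0.17 to 0.34 for *H2-K1* and -0.41 to 0.49 for *Tap1*. Lowest to highest values were -0.20 to 0.55 for *Tapbp*, -0.30 to 1.46 for *Psmb8*, -0.29 to 0.76 for *Psmb9* and -0.37 to 0.38 for *Psmb10*. The ends of most of these ranges were set by leaving out a replicate 3 library.

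Limits remain. The filter asks for counts in at least 3 libraries, so a gene seen only in both replicate 3 libraries was not tested. Replicate 3 is 1 library in each condition, and the sources used here do not say whether its date, passage or handling differed from those of the others. Each group is 1 line with 1 kind of guide RNA, and the SAM activators are named for the activated group only. The line, the guide RNA and the activators therefore cannot be told apart from *Thada* activation.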
